A study of Mus musculus with 40 samples.

Results

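Activins and bone morphogenetic proteins (BMPs) are secreted ligands of the TGFβ family, and the 10 genes described here encode their subunits and the secreted proteins that bind and block them. They are Inhba and Inhbb, which encode the activin βA and βB subunits, the BMP ligands Bmp2, Bmp4, Bmp5 and Bmp7, the activin-binding protein follistatin (Fst), and the BMP antagonists Grem1, Nog and Chrdl1. They were taken by symbol from the 45706 genes of the deposited tables, and all 10 were found. Expression was measured by RNA sequencing in 40 libraries, 4 in each of 10 groups of sorted mouse cells. Tumor-bearing mice carried Cdx2CreERT2 and Apc fl/fl on a C57Bl6/Sv129 background and had been given 1 intraperitoneal dose of Tamoxifen (25 mg/kg) at 8 to 10 weeks of age, which deletes the Wnt pathway repressor Apc in cells that express the Cdx2 driver, largely colon epithelium. Their tumors gave monocytes (CD45+ CD11b+ MHCII- Ly6G- with high Ly6C), neutrophils (CD45+ CD11b+ MHCII- Ly6G+ with low Ly6C), epithelial cells (CD45- EpCAM+) and stromal cells (CD45- EpCAM-), and their blood gave monocytes and neutrophils. Healthy C57Bl6 mice, with no transgene and no agent, gave blood monocytes and neutrophils and colon epithelial and stromal cells. Strain, transgene and Tamoxifen therefore differed wherever tumor-bearing and healthy mice were compared, and their effects and that of the tumor cannot be told apart. By their titles, 1 library of blood neutrophils from tumor-bearing mice and 3 of healthy blood monocytes pooled animals.

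Activins form as dimers of β subunits, bind type II and type I activin receptors and act through SMAD2 and SMAD3, and follistatin holds them in complexes that cannot reach the receptors. BMPs act through SMAD1, SMAD5 and SMAD9 and induce the Id genes. In the colon the mesenchyme around the crypts is the main source both of BMPs, which favor differentiation toward the crypt top, and of the antagonists gremlin (Grem1), noggin (Nog) and chordin-like 1 (Chrdl1), which protect the stem cells at the crypt base.

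The promoters of Inhba, Bmp4 and Grem1 are shown because these genes carry the main differences below, Inhba in tumor myeloid cells and the other two in stromal cells. Each sequence holds 250 bases before and 50 after the start of the gene in RefSeq (GRCm38.p6), is written 5′ to 3′ on the strand of the gene, and has every CG dinucleotide in capitals. The Inhba window is chr13:16011601-16011900 (plus strand), that of Bmp4 is chr14:46390620-46390919 (minus strand) and that of Grem1 is chr2:113758599-113758898 (minus strand).
Inhba: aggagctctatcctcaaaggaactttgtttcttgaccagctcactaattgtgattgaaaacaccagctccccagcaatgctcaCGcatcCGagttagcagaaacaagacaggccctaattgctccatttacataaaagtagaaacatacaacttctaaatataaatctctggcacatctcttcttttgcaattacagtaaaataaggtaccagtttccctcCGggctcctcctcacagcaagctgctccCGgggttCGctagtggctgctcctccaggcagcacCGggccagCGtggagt
Bmp4: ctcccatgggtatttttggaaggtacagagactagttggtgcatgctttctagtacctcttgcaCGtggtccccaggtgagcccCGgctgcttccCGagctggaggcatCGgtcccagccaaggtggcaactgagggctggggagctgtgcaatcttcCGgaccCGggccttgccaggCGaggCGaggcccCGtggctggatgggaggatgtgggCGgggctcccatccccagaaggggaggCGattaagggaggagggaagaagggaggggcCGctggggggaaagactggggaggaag
Grem1: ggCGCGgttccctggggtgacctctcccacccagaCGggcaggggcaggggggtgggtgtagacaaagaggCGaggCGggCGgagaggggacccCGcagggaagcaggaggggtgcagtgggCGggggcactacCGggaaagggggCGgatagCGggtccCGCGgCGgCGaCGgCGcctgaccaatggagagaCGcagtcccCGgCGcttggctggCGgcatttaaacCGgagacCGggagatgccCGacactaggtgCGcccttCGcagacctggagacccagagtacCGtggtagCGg
The Grem1 window held 28 CG dinucleotides, more than 85.8% of 32851 mouse promoters of this length, that of Bmp4 held 12, more than 60.4%, and that of Inhba 7, the median over all promoters. Promoters of 5 of the 10 genes were matched, with Inhbb (23 CG) and Bmp5 (4 CG) besides these, and those of Bmp2, Bmp7, Fst, Nog and Chrdl1 were not used here. Both strands were searched for 5 motifs. The AP-1 motif TGANTCA, bound by Fos and Jun proteins, occurs in 7.81% of all promoters of this length. The CRE motif TGACGTCA, bound by CREB, occurs in 1.79%. For CTTTGAT, the motif of the TCF/LEF partners of beta-catenin, the share is 3.73%, and for the NF-kB motif it is 1.63%. The TATA box, searched as TATAAA, occurs in 13.6%. The 5 matched windows held 1 match, a TATAAA that begins 91 bases before the start of Inhba, which is a description of the letters and not of binding.

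The sorted fractions were compared with markers of the cell types they could hold. The RPKM (reads per kilobase of gene, scaled to the mapped reads of the library) of each marker was set in percent of its mean in a reference group, and each list is given by the median of these percentages. The tumor stromal cells met their label only in part. The 6 fibroblast markers stood at 1.17%, 2.76%, 3.85% and 3.06% of healthy stromal cells in tumor stromal libraries 1 to 4. The 8 epithelial markers stood there at 93.9%, 51.9%, 20.5% and 12.1% of tumor epithelial cells, and at 0.120% to 7.32% in healthy stromal libraries. The 5 endothelial markers stood at 1.24% and 2.55% of healthy stromal cells in tumor stromal libraries 1 and 2 and at 122% and 139.8% in libraries 3 and 4. Libraries 1 and 2 were thus rich in epithelial transcripts and libraries 3 and 4 in endothelial ones, no marker of these 3 lists was at 0 in them, and the stromal tests are given with all 4 libraries and, where it changes them, without libraries 1 and 2. In healthy stromal library 4 the fibroblast list was at 219.9% and the endothelial list at 18.1%. Tumor neutrophil library 1 held epithelial markers at 76.8%, against 4.95% to 17.5% in the other 3. Counts on genes ranged from 10717873 to 38002939 per library, and mitochondrial genes took 5.34% to 83.9% of them. Both upper values were those of healthy epithelial library 4. Its epithelial list was at 35.3% of tumor epithelial cells, against 126% to 187% in the other healthy epithelial libraries. In such bulk samples, fewer cells of a type and less RNA per cell cannot be told apart.

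By group mean, Inhba was highest in tumor monocytes, Inhbb in tumor stromal cells, Fst and Bmp7 in tumor epithelial cells, and Bmp2, Bmp4, Bmp5, Grem1, Nog and Chrdl1 in healthy stromal cells. Healthy stromal cells held 88.5% of the sum of the 10 group means for Bmp4, 91.5% for Bmp5, 93.4% for Grem1 and 89.9% for Chrdl1, while tumor monocytes held 84.9% of that sum for Inhba. The top group was separated from the next by ranges that did not overlap for Inhba, Bmp4, Grem1 and Chrdl1, and overlapped it for the other 6 genes. Bmp2 was spread more evenly, with 43.5% in healthy stromal cells, 22.9% in tumor stromal cells and 20.5% in tumor epithelial cells. In the 4 blood groups each gene other than Inhba had a mean of at most 0.0644 RPKM.

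**Figure D1:**
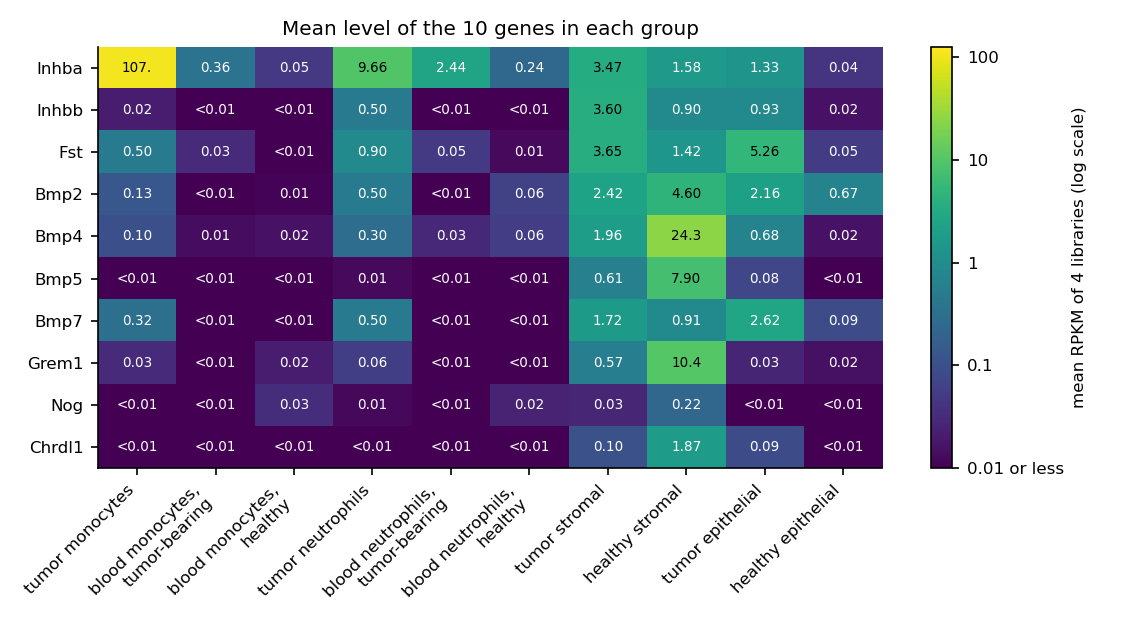
Mean level of each of the 10 genes in each of the 10 groups, as RPKM over 4 libraries on a log color scale. The highest value is Inhba in tumor monocytes (107 RPKM), and healthy stromal cells hold the highest values of Bmp4 (24.3 RPKM) and Grem1 (10.4 RPKM).

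Inhba was high in tumor myeloid cells. Its RPKM in tumor monocytes was 124, 64.7, 80.6 and 159.8 in libraries 1 to 4, against 0.113, 0.0562, 0.493 and 0.793 in blood monocytes of tumor-bearing mice and 0.0301, 0.0268, 0.0798 and 0.0555 in those of healthy mice. Every tumor library exceeded every blood library, while the blood groups overlapped, and 10.6% of all genes tested separated tumor from blood monocytes in this direction. In tumor neutrophils Inhba was at 10.2, 9.27, 9.83 and 9.31 RPKM, with 3.16, 2.67, 1.83 and 2.11 in neutrophils from the blood of tumor-bearing mice and 0.0435, 0.202, 0.289 and 0.419 in healthy blood neutrophils. These 3 neutrophil groups did not overlap, with healthy blood lowest and the tumor highest, where 13.6% of all genes were higher without overlap in tumor than in blood neutrophils and 6.38% in blood of tumor-bearing than of healthy mice.

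A gene was called different where the Benjamini-Hochberg adjusted p of edgeR's quasi-likelihood test over all genes was under 0.05 and the log2 fold change exceeded 1.5 in size. In tumor against blood monocytes of tumor-bearing mice Inhba rose by a log2 fold change of 8.45 (SE 0.86, edgeR adjusted p = 0.000123), and was the only 1 of the 10 genes with enough counts to be tested there, where 11.7% of all genes tested were called. In tumor against blood neutrophils it rose by 2.08 (SE 0.35, edgeR adjusted p = 0.00253), and 2 of the 3 genes tested were called, against 16.3% of all genes. The other gene called, Inhbb, had at most 3 counts in each blood library and was tested through the tumor libraries alone. That count of genes therefore cannot be read against the share of all genes. In blood neutrophils of tumor-bearing against healthy mice Inhba was called as well, with a log2 fold change of 3.32 (SE 0.57, edgeR adjusted p = 0.00964), as the 1 gene tested, where 4.01% of all genes were called. Beside this, the neutrophil marker list was at 89.1% to 118% in these neutrophils of tumor-bearing mice and 26.0% to 68.5% in those of healthy mice, and its part in the result was not tested. In blood monocytes the same contrast gave a log2 fold change of 3.03 that missed the threshold (SE 0.91, edgeR adjusted p = 0.261), with 0.209% of all genes called. Of 8 alternatives, 1 (DESeq2) called it, and their adjusted p ran from 0.0368 to 0.583. The step from blood into the tumor was not equal in both cell types, being lower in neutrophils than in monocytes by a log2 difference of -6.50 (SE 0.84, edgeR adjusted p = 0.000629), in a test that called 3.95% of all genes and 1 of the 6 genes tested. These contrasts share the blood libraries of tumor-bearing mice.

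Among the sorted tumor cells Inhba was higher in monocytes than in neutrophils, by 2.81 on the log2 scale (SE 0.45, edgeR adjusted p = 0.00115), and the log2 fold change of stromal cells over monocytes was -5.21 (SE 0.51, edgeR adjusted p = 3.57e-05). Some of these fractions came from the same mice by their titles. With the animal as a block the edgeR adjusted p for monocytes over neutrophils was 0.0231, the highest over 10 alternatives, all of which called Inhba. By mean RPKM (± SD, n = 4) the order was tumor monocytes (107 ± 43.1), tumor neutrophils (9.66 ± 0.458), tumor stromal cells (3.47 ± 1.97), blood neutrophils of tumor-bearing mice (2.44 ± 0.594), healthy stromal cells (1.58 ± 0.163), tumor epithelial cells (1.33 ± 0.629), blood monocytes of tumor-bearing mice (0.364 ± 0.345), healthy blood neutrophils (0.238 ± 0.158), healthy blood monocytes (0.0481 ± 0.0247) and healthy epithelial cells (0.0426 ± 0.0335). Neighbors in this order did not overlap at the first 2 steps and between blood neutrophils of tumor-bearing mice and healthy stromal cells, and overlapped at the others. Tumor monocytes held epithelial markers at 0.902% to 16.6% of tumor epithelial cells, and Inhba was at most 2.01 RPKM in tumor epithelial cells. The part of epithelial transcripts in the Inhba level of tumor monocytes was not tested. The 6 monocyte and macrophage markers stood by their median at 9.06% to 17.7% of blood monocytes in tumor neutrophils and 27.9% to 30.6% in blood neutrophils of tumor-bearing mice, but their summed RPKM ran the other way, at 404 to 1329.8 against 236 to 315, with 451 to 785 in tumor monocytes. In tumor neutrophils most of that sum was Cd14, at 856 RPKM there, 116 in blood neutrophils and 381 in tumor monocytes, whereas 4 of the other 5 markers had lower means in tumor than in blood neutrophils and Ccr2 was at 0.181 and 0.167 RPKM beside 35.0 in tumor monocytes. No marker of the list was at 0, and its part in the Inhba level of tumor neutrophils was not tested.

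**Figure D2:**
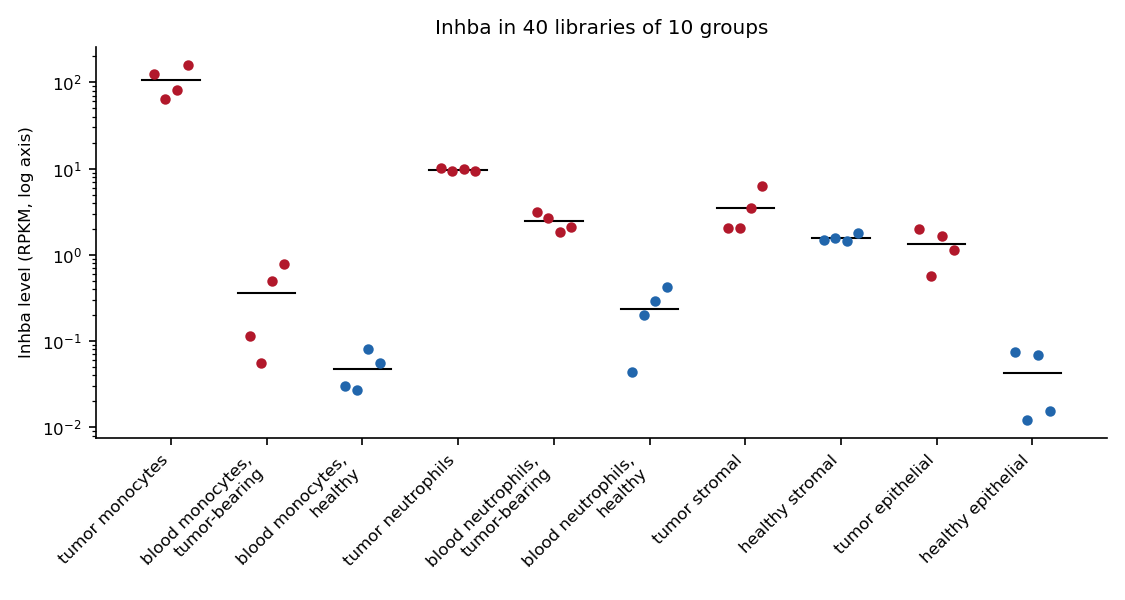
Inhba level (RPKM, log axis) in each of the 40 libraries, as points by group, with the group mean as a line, tumor-bearing mice in red and healthy mice in blue. The 4 tumor monocyte libraries sit between 64.7 and 159.8 RPKM, above all other libraries, and the tumor neutrophil libraries between 9.27 and 10.2 RPKM.

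Inhbb, the βB subunit gene, had another pattern in myeloid cells. It was at 1.18, 0.263, 0.237 and 0.313 RPKM in tumor neutrophils, while each library of both blood neutrophil groups held at most 3 counts. The tumor level was at least 44.2-fold higher than 3 counts per library give in blood of tumor-bearing mice, and the gene was called (edgeR adjusted p = 0.00104). Library 1, the highest, was also the one with epithelial markers at 76.8%, and without it the bound was 24.0-fold and the gene was still called. In tumor monocytes Inhbb was at 0.0148, 0.00974, 0.0271 and 0.0317 RPKM, so that it was lower there than in tumor neutrophils, with no overlap (as for 4.82% of all genes) and a log2 fold change of -4.94 (SE 0.73, edgeR adjusted p = 0.000717), opposite in direction to Inhba. In this comparison 1 gene was called higher in monocytes and 2 lower, where 4.00% of all genes were higher and 9.82% lower and the median gene stood at -0.31. The second gene called lower was Chrdl1, below 3 counts in each monocyte library and at most 0.0347 RPKM in neutrophils, and its call held in 5 of 16 fits without 1 library, with the highest adjusted p of 0.167 without tumor neutrophil library 1, and was kept by 3 of 10 alternatives.

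Follistatin and BMP ligands were also detected in tumor neutrophils, highest in library 1. Fst was at 2.097, 0, 0.652 and 0.834 RPKM there and at 0.0359, 0.0654, 0.00688 and 0.0921 in neutrophils from the blood of tumor-bearing mice. The groups overlapped through tumor library 2, and the log2 fold change of 3.92 missed the threshold (SE 1.31, edgeR adjusted p = 0.0621). Leaving out 1 library at a time gave an adjusted p from 0.00213 (without tumor library 2) to 0.148. Bmp2 was at 1.55, 0, 0.163 and 0.279 RPKM and Bmp7 at 1.40, 0.0139, 0.331 and 0.261 in tumor neutrophils. Bmp4 was at 0.406, 0.0202, 0.369 and 0.391 RPKM there, nearly level in libraries 1, 3 and 4. None of these ligand genes had enough counts to be tested. The epithelial list stood at 76.8%, 12.7%, 17.5% and 4.95% of tumor epithelial cells in these libraries, and its part in the result was not tested.

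In stromal cells the leading BMP ligand and the leading BMP antagonist fell in tumors. Bmp4 was at 21.2, 24.6, 37.2 and 14.3 RPKM in healthy stromal libraries and at 1.02, 1.87, 2.71 and 2.26 in tumor stromal libraries. Grem1, whose product blocks BMP2 and BMP4, was at 6.36, 15.99, 8.16 and 11.1 RPKM in healthy and 0.178, 0.821, 0.449 and 0.834 in tumor stromal libraries. The groups did not overlap for either gene, as for 17.3% of all genes in this direction. Bmp4 was called lower with a log2 fold change of -3.26 (SE 0.39, edgeR adjusted p = 0.00473) and Grem1 with -3.82 (SE 0.59, edgeR adjusted p = 0.00793). These were 2 of the 9 genes tested, against 8.40% of all genes called and 5.01% called lower. Without tumor stromal libraries 1 and 2 the values were -3.01 and -3.76, and both genes were called under each of 10 alternatives, with adjusted p up to 0.0114 for Bmp4 and 0.0206 for Grem1. The fibroblast list was low beside them, at 1.17% to 3.85% of healthy stromal cells in the 4 tumor stromal libraries. The list of 5 smooth muscle markers was low too, at 4.94% to 13.4% in tumor against 63.2% to 184% in healthy stromal libraries. The part of both lists in the result was not tested.

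Bmp5 and Chrdl1 had lower means in tumor stromal cells but varied widely among the healthy libraries. Bmp5 was at 8.31, 10.1, 12.4 and 0.773 RPKM in healthy and 0.0555, 0.162, 1.57 and 0.673 in tumor stromal libraries, and healthy library 4 lay inside the tumor range. Its log2 fold change of -3.38 missed the threshold (SE 1.05, edgeR adjusted p = 0.0790), and it was called without healthy library 4, with an edgeR adjusted p of 0.0403 (0.0403 to 0.162 over the fits without 1 library). Chrdl1 was at 1.03, 0.459, 0.286 and 5.71 RPKM in healthy and 0.170, 0.121, 0.0876 and 0.0305 in tumor stromal libraries, with no overlap, as for 17.3% of all genes in this direction. Its log2 fold change was -3.83 (SE 1.05, edgeR adjusted p = 0.0538) and -2.11 without healthy library 4, the library with the highest fibroblast list. Nog was low, at 0.265, 0.0239, 0.230 and 0.377 RPKM in healthy and 0.0436, 0.0385, 0.0253 and 0.00482 in tumor stromal libraries, and did not pass the filter on low counts. Bmp2 was at 4.62, 2.94, 4.61 and 6.24 RPKM in healthy and 2.35, 3.00, 3.31 and 1.03 in tumor stromal libraries, with overlap and a log2 fold change of -0.54 (SE 0.40, edgeR adjusted p = 0.442). Without tumor stromal libraries 1 and 2 the log2 fold changes were -2.55 for Bmp5, -4.72 for Chrdl1, -3.53 for Nog, which then had enough counts, and -0.81 for Bmp2, and each missed the threshold (edgeR adjusted p = 0.191, 0.117, 0.212 and 0.392).

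The activin genes differed within the tumor stromal libraries. Inhba was at 2.04, 2.06, 3.53 and 6.22 RPKM in tumor and 1.505, 1.58, 1.43 and 1.81 in healthy stromal libraries, so that the groups did not overlap, as for 4.21% of all genes in this direction. Its log2 fold change of 1.46 (SE 0.38, edgeR adjusted p = 0.0443) was under the fold threshold. Inhbb was at 1.71, 0.884, 5.06 and 6.74 RPKM in tumor and 0.536, 0.853, 1.83 and 0.379 in healthy stromal libraries, with overlap and a log2 fold change of 2.33 (SE 0.68, edgeR adjusted p = 0.0653). Without tumor stromal libraries 1 and 2 both were called, at 1.91 for Inhba and 3.01 for Inhbb. Over 10 alternatives the adjusted p ran from 0.00348 to 0.133 for Inhba and from 0.00524 to 0.139 for Inhbb. In libraries 3 and 4, the ones high in both genes, the monocyte and macrophage list stood at 15.8% and 17.1% of blood monocytes, against 2.19% and 1.19% in libraries 1 and 2 and 0.276% to 2.26% in healthy stromal cells. The endothelial list was high in tumor libraries 3 and 4 as given above. It was also at 104%, 117%, 148% and 18.1% in healthy stromal libraries 1 to 4. The part of both lists in the result was not tested.

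Fst and Bmp7 ran the other way across the same libraries. Fst was at 7.65, 4.80, 1.53 and 0.613 RPKM in tumor stromal libraries 1 to 4 and Bmp7 at 3.13, 2.34, 1.16 and 0.258, both in the same order as the epithelial markers, whose part was not tested. In healthy stromal libraries Fst was at 1.06, 0.371, 0.216 and 4.05 RPKM and Bmp7 at 0.780, 0.667, 1.83 and 0.380, overlapping the tumor libraries. Neither was called, with log2 fold changes of 1.74 (SE 1.05, edgeR adjusted p = 0.343) and 1.36 (SE 0.73, edgeR adjusted p = 0.292). Without libraries 1 and 2 these turned to -0.15 for Fst and -0.08 for Bmp7.

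**Figure D3:**
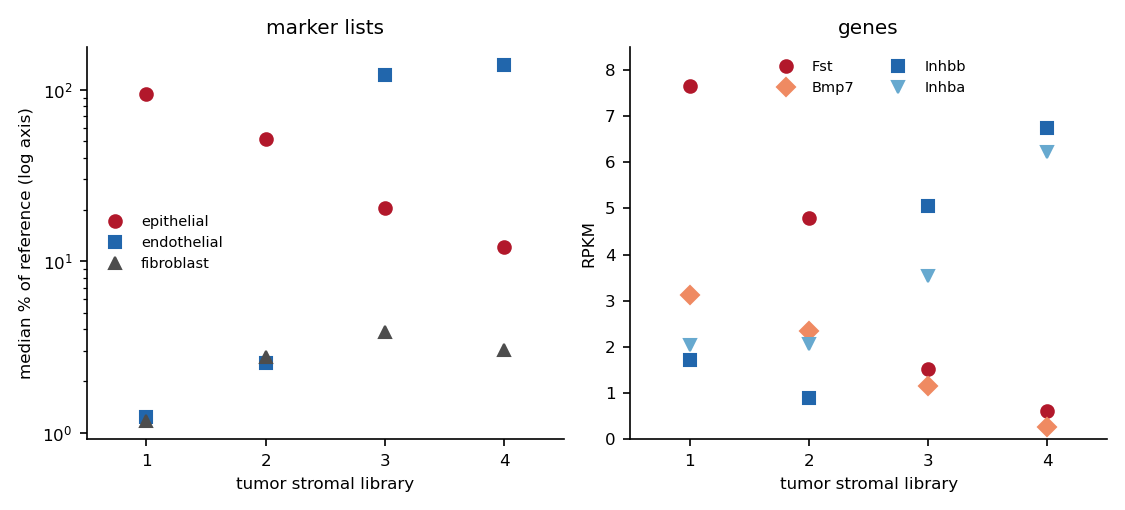
The 4 tumor stromal libraries, with the median level of the epithelial, endothelial and fibroblast marker lists in percent of their reference groups on the left (log axis) and the RPKM of Fst, Bmp7, Inhbb and Inhba on the right, 1 point per library. Fst and Bmp7 are highest in library 1, where epithelial markers stand at 93.9%, and Inhba and Inhbb in library 4, where endothelial markers stand at 139.8%.

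In epithelial cells the activin subunits, follistatin and the ligands Bmp4 and Bmp7 rose in tumors, from low levels. Fst was at 3.25, 2.49, 8.70 and 6.59 RPKM in tumor epithelial libraries and at 0.204, 0.00633, 0 and 0 in healthy ones. Bmp7 was at 2.53, 1.87, 3.46 and 2.62 RPKM in tumor and 0.139, 0.0939, 0.0459 and 0.0761 in healthy libraries. Bmp4 was at 0.746, 0.616, 0.702 and 0.651 RPKM in tumor libraries, whereas each healthy library held at most 3 counts of it. None of these 3 genes overlapped between the groups, as for 20.6% of all genes in this direction. Inhba was at 2.01, 0.562, 1.64 and 1.12 RPKM in tumor and 0.0745, 0.0121, 0.0685 and 0.0153 in healthy libraries. Inhbb was at 0.843, 0.325, 1.45 and 1.09 RPKM in tumor and 0.0603, 0.00154, 0.000565 and 0.00164 in healthy libraries. Both activin subunits were thus higher in each tumor library than in any healthy one, again as for 20.6% of all genes.

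The log2 fold changes in epithelial cells were 6.03 (SE 1.08, edgeR adjusted p = 0.00256) for Fst and 5.19 (SE 1.10, edgeR adjusted p = 0.00658) for Inhbb, and both rested in size on healthy library 1, without which the fitted values were 10.30 and 8.57. They were 4.32 (SE 0.67, edgeR adjusted p = 0.00114) for Inhba and 3.88 (SE 0.56, edgeR adjusted p = 0.000788) for Bmp7. Bmp4 was at least 31.0-fold higher in tumor epithelial cells than 3 counts per healthy library give and was called (edgeR adjusted p = 0.000611). These 5 were called of 6 tested, where 15.4% of all genes were called and 7.52% called higher. Inhba, Inhbb, Fst and Bmp4 had too few counts in healthy libraries to pass the filter on low counts by those alone. They were tested through the tumor libraries, where they were high, so this count cannot be read against the share of all genes. Bmp2 was at 1.54, 3.11, 2.29 and 1.72 RPKM in tumor and 1.35, 0.644, 0.397 and 0.300 in healthy libraries, without overlap, as for 20.6% of all genes in this direction, and its log2 fold change of 0.93 was not called (SE 0.49, edgeR adjusted p = 0.212). The RPKM scale was itself shifted, since the median gene stood at 0.42 on the log2 scale of RPKM and at -0.01 in edgeR in this comparison, and at -0.28 and 0.03 in stromal cells. Chrdl1 and Bmp5 were not tested in epithelial cells, but their RPKM was higher in each tumor than in each healthy library. Their tumor means were at least 12.8-fold higher for Chrdl1 and 3.48-fold for Bmp5 than 3 counts per healthy library give, but 6.54-fold without tumor library 4 and 1.53-fold without tumor library 2, and the lowest tumor library alone gave 2.58-fold and 1.36-fold. The fibroblast list was at 0.0260% to 0.124% of healthy stromal cells in tumor and 0.00900% to 0.271% in healthy epithelial libraries, and the endothelial list at 0.814% to 1.51% and 0.0544% to 0.472%. The smooth muscle list was at 3.71%, 1.42%, 12.7% and 8.62% of healthy stromal cells in tumor epithelial libraries 1 to 4. It was at 0.554% to 1.52% in healthy epithelial libraries. The part of these lists in the result was not tested.

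**Figure D4:**
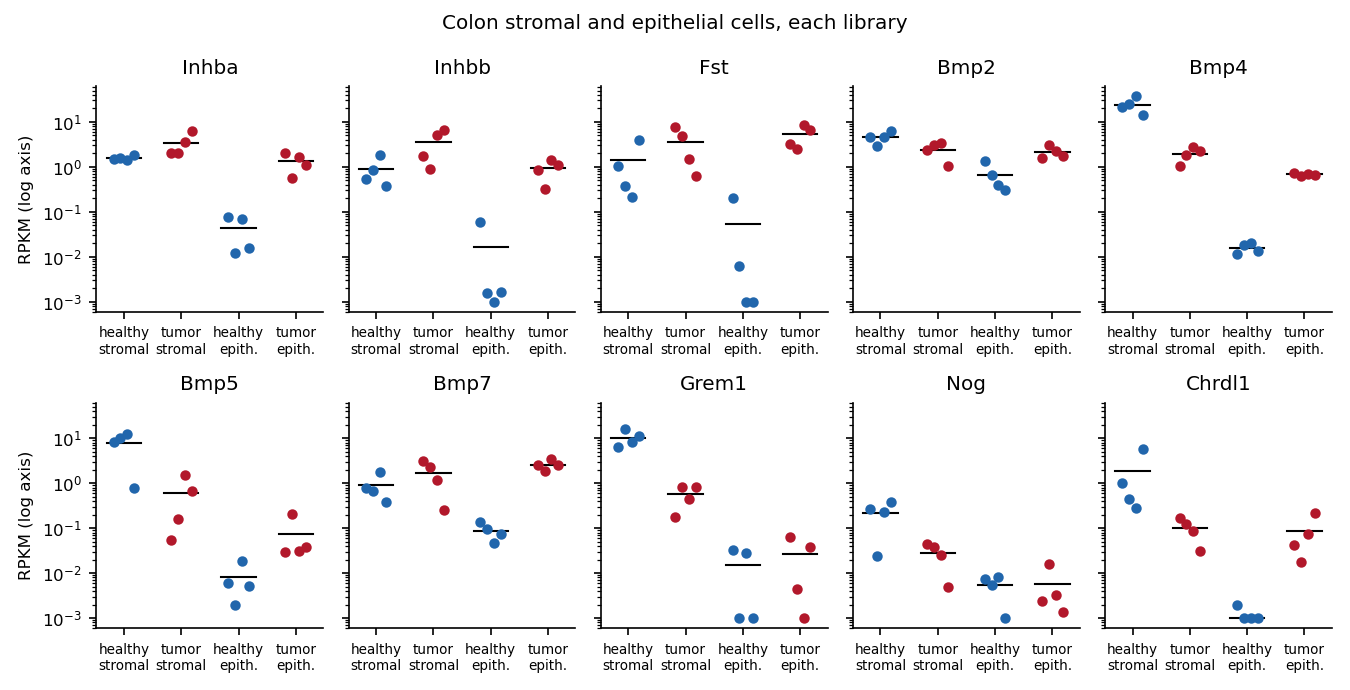
RPKM (log axis) of the 10 genes in the 4 colon groups, with 1 point per library, the group mean as a line and values under 0.001 drawn at 0.001, healthy mice in blue and tumor-bearing mice in red. Bmp4 and Grem1 are lower in all tumor than in all healthy stromal libraries, and Inhba, Inhbb, Fst, Bmp4 and Bmp7 higher in all tumor than in all healthy epithelial libraries.

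The mix of ligands and antagonists in each compartment is given by sums of RPKM (mean ± SD, n = 4). Percentages are shares of the ligand sum within each library, averaged over the libraries unless given by library. In healthy stromal cells the 4 BMP ligands summed to 37.8 ± 14.2 RPKM, with 64.3% from Bmp4 and 19.0% from Bmp5, beside 12.5 ± 5.03 RPKM for Grem1, Nog and Chrdl1 together. In tumor stromal cells the ligand sum was 6.72 ± 1.90 RPKM, with 34.7% from Bmp2, 31.4% from Bmp4 and 24.7% from Bmp7, and the antagonist sum 0.701 ± 0.272 RPKM. This mix varied by library, since the share of Bmp7 was 47.7%, 31.7%, 13.3% and 6.12% and that of Bmp4 15.5%, 25.4%, 31.0% and 53.5% in libraries 1 to 4, Bmp7 in the same order as the epithelial markers. Without libraries 1 and 2 the mean shares were 42.2% for Bmp4, 31.1% for Bmp2 and 9.69% for Bmp7, and the sums 6.48 RPKM of ligands and 0.716 of antagonists. The tumor epithelial ligand sum of 5.54 ± 0.750 RPKM came to 47.5% from Bmp7 and to 38.7% from Bmp2, whereas the 0.786 ± 0.507 RPKM of healthy epithelial cells was 83.3% Bmp2. The activin subunits summed to 107 ± 43.1 RPKM in tumor monocytes, where Fst was at 0.605, 0.542, 0.776 and 0.0661 RPKM. In tumor epithelial cells the means stood in the other order, with 2.26 ± 0.989 RPKM of activin subunits and 5.26 ± 2.90 RPKM of Fst.

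The difference between tumor and healthy mice was not the same in stromal and epithelial cells for 4 of the 9 genes tested, in an interaction test that called 14.1% of all genes. The log2 change in stromal cells minus that in epithelial cells was -7.94 for Bmp4 (SE 0.61, edgeR adjusted p = 1.02e-05) and -2.87 for Inhba (SE 0.73, edgeR adjusted p = 0.0148). The fitted differences for Bmp5 (-6.09, edgeR adjusted p = 0.0219) and Chrdl1 (-10.07, edgeR adjusted p = 0.00156), like that for Bmp4, rest on healthy epithelial libraries with at most 3 counts and give no size. For Inhba the call was lost without tumor stromal libraries 1 and 2, where the difference was -2.46 (edgeR adjusted p = 0.0584, with 0.00151 to 0.447 over 10 alternatives). The call for Bmp5 held in 14 of 16 fits without 1 library, being lost without tumor epithelial library 2 and healthy epithelial library 2.

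**Figure D5:**
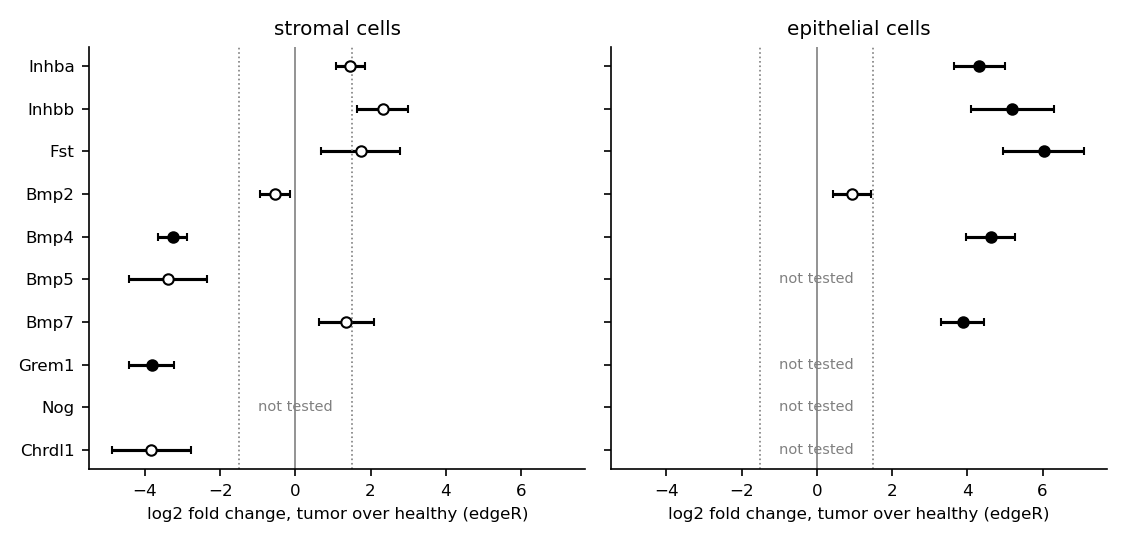
Log2 fold change of tumor over healthy cells by edgeR for each gene in stromal and epithelial cells, with bars of 1 SE, filled points for genes called different, open points for genes not called and dotted lines at the fold threshold of 1.5. Bmp4 lies at -3.26 in stromal cells and at 4.62 in epithelial cells, where the fitted value depends on healthy libraries with at most 3 counts.

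In healthy colon 7 of 9 genes tested were called higher in stromal than in epithelial cells, against 30.9% of all genes called and 19.4% called higher. Of those called, all but Bmp2 had too few counts in epithelial libraries to pass the filter on low counts by those alone. They were tested through the stromal libraries, where they were high, so this count cannot be read against the share of all genes. Against 3 counts per epithelial library, stromal levels were at least 1110.3-fold higher for Bmp4, 363-fold for Bmp5 and 270.1-fold for Chrdl1 (85.5-fold without healthy stromal library 4), on an RPKM scale whose median gene was 0.79 higher on the log2 scale in stromal cells (0.14 in edgeR). The others called were Grem1 (log2 fold change 8.76, SE 0.93), Inhbb (4.87, SE 1.24), Inhba (4.25, SE 0.59) and Bmp2 (1.65, SE 0.49), with edgeR adjusted p of 0.000159, 0.0122, 0.000586 and 0.0242. The size for Inhbb rested on healthy epithelial library 1, without which the fitted value was 8.24. Nog did not pass the filter on low counts, and without that filter it was called too, at 4.02 (edgeR adjusted p = 0.0166). The call for Bmp2 held in 3 of 8 fits without 1 library. In tumors edgeR called 0 of 9 genes between stromal and epithelial cells, where 4.09% of all genes were called, 4 of the 9 had an unadjusted p under 0.05, and DESeq2 called 2. Without tumor stromal libraries 1 and 2, Inhba (log2 fold change 1.73), Inhbb (2.58) and Bmp5 (3.59) were called higher in tumor stromal cells, with edgeR adjusted p of 0.0248, 0.0144 and 0.0410, the lowest over 11 alternatives, of which the highest were 0.502, 0.308 and 0.905.

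Tumor stromal cells had more Inhbb, Bmp2, Bmp4, Bmp5, Grem1 and Chrdl1 than tumor monocytes, besides less Inhba, so that 7 of 9 genes were called, where 20.3% of all genes were. The log2 fold change for Inhbb was 7.09 (SE 0.80, edgeR adjusted p = 0.000103). Bmp5 and Chrdl1 were at least 27.4-fold and 14.4-fold higher in stromal cells against 3 counts per monocyte library, and 13.3-fold for Bmp5 without stromal library 3, with 2.48-fold and 4.28-fold from the lowest stromal library alone. Without tumor stromal libraries 1 and 2, 5 of the 9 genes were called, as Bmp2 (3.80, edgeR adjusted p = 0.108) and Grem1 (4.10, edgeR adjusted p = 0.111) lost their calls. Fst and Bmp7 were not called with or without these libraries (log2 fold change 2.63 and 2.23 with them, 0.76 and 0.86 without). With the animal named in the library titles as a block, 2 genes were called, Inhba (edgeR adjusted p = 0.0165) and Inhbb (edgeR adjusted p = 0.00688), these being the highest values over 11 alternatives, each of which called both genes.

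Other genes of the pathway were read from lists of 20 further ligands, 15 further antagonists, 15 receptors and co-receptors, 8 SMADs and 10 BMP target genes. In stromal cells 6 of 13 further antagonists tested were lower in tumors and 0 higher, where 5.01% of all genes were called lower. The lower ones included log2 fold changes of -3.30 for Nbl1, a relative of gremlin, -3.41 for Chrd (chordin), -3.41 for Kcp, -3.09 for Fstl1 and -2.38 for Fstl3, the last a close relative of follistatin. The median over these 13 was -2.38, against 0.03 over all genes. Of 9 further ligands tested, Gdf10 (-4.62) and Bmp6 (-2.71) were lower and Bmp8b (2.38) higher, and of 12 receptors and co-receptors the co-receptors Tgfbr3 (-3.40), Rgma (-3.15) and Rgmb (-2.22) were lower. Of 8 SMADs and 9 BMP targets tested 0 were called, with medians of 0.20 and 0.17. Adjusted p by edgeR was between 0.00433 and 0.0434 for the 12 genes called. Without tumor stromal libraries 1 and 2, 4 of 13 antagonists were still called lower, Nbl1 (-3.12), Kcp (-3.45) and Fstl3 (-2.80) among them, and Tgfbr3 (-2.59) and Rgma (-4.25) of the co-receptors. Then 0 of 12 ligands were called, Smad9 was called lower (-1.61), and 3.04% of all genes were called lower. The low fibroblast and smooth muscle lists given above stood beside these changes too, and their part was not tested.

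In epithelial cells 5 of 10 BMP target genes tested were higher in tumors and 0 lower, where 7.52% of all genes were called higher, with a median log2 fold change of 1.82 against -0.01 over all genes. They were the homeobox genes Msx1 (log2 fold change 8.04) and Msx2 (5.88), the pseudoreceptor gene Bambi (2.15), which is also on the list of receptors, and the inhibitors of differentiation Id2 (1.57) and Id3 (1.51). RPKM of Msx1 averaged 1.62 in tumor and 0.00602 in healthy epithelial cells, and that of Id3 14.7 and 3.25. The part of BMP ligands or of the loss of Apc in these changes was not tested. Among 6 further ligands tested Gdf11 (3.50), Bmp6 (2.13) and Bmp8b (2.06) were higher and Bmp3 (-4.10) lower. Of 12 receptors and co-receptors, the activin receptor Acvr1c (-4.71) and Rgmb (-2.08) were lower and Bambi higher, and of 8 SMADs Smad9 (1.90) was higher. Of 5 further antagonists tested, Smoc1 (3.45) was higher and Crim1 (-1.54) lower.

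In tumor against blood monocytes 4 of 6 BMP target genes tested were called higher, as were 7.76% of all genes. They were Id3 (log2 fold change 3.29), Id2 (2.22), Smad7 (2.13), an inhibitory SMAD that is on the list of SMADs as well, and Id1 (2.11), with a median over the 6 of 2.12 against -0.03 over all genes. Of 4 further ligands tested, Inhbc, which encodes the βC subunit, was higher by 8.46 (SE 0.87, edgeR adjusted p = 0.000131), from 0.00445 to 1.59 RPKM on average, and of 4 further antagonists Twsg1 (2.63) was higher. Of 11 receptors and co-receptors 0 were called. In tumor against blood neutrophils Id3 (6.23) was the 1 BMP target called of 5, where 11.9% of all genes were called higher, and the BMP type I receptor gene Acvr1 was called of 10 receptors and co-receptors, at 2.08 ± 3.06 RPKM (SD, n = 4) in tumor and 0.0139 ± 0.0108 in blood neutrophils. Gdf11 (3.51) and Inhbc (2.37) of 5 ligands, Fstl1 (3.41) and Crim1 (3.41) of 3 antagonists and Smad5 (2.16) of 6 SMADs were higher too, and 0 genes of these lists were lower. Beside these, the epithelial list was at 4.95% to 76.8% of tumor epithelial cells in tumor and 0.0389% to 0.102% in blood neutrophils, and its part was not tested. Without tumor neutrophil library 1, the highest of these, Id3, Acvr1, Gdf11, Inhbc and Fstl1 were still called, at 5.86, 7.92, 3.31, 2.50 and 3.01, Crim1 (2.56) and Smad5 (1.78) were not, and Id1 (1.61) was added. In blood neutrophils of tumor-bearing against healthy mice 2 of 8 receptors and co-receptors were called higher, where 1.79% of all genes were, named after their values were seen, the BMP type I receptor gene Acvrl1 (4.62) and the activin type I receptor gene Acvr1b (2.18), the second at 5.42 against 1.23 RPKM.

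Across the 40 libraries, the 3 genes whose log2(RPKM + 0.1) ran most like each member were sought among 13958 genes. These Pearson correlations describe groups of sorted cells, whose libraries share cell type and depth, and are given without a test. For Inhba they were Il1a, the gene of interleukin-1α (0.888), Inhbc (0.881) and Rab20 (0.857). For Inhbb they were 2610307P16Rik (0.933), Cdh5 (0.920) and Cdh13 (0.918), the second a cadherin gene of endothelium. Fst ran with Nav3 (0.944), Tnfrsf19 (0.933) and Ptn (0.931), and Bmp7 with Chrnb1 (0.955), Dtna (0.954) and Arntl2 (0.951). Bmp2 ran with Tcaf1 (0.964), Rhbdf1 (0.964) and Nbea (0.961), Bmp4 with Ltbp4 (0.973), Plod2 (0.973) and Prickle2 (0.971) and Bmp5 with Foxf2 (0.977), Alpl (0.972) and Carmn (0.971). Among the antagonists, Grem1 ran with Clip3 (0.978), Slit3 (0.978) and Lox (0.977), the last the gene of a collagen cross-linking enzyme, and Chrdl1 with Sema3d (0.974), Vgll3 (0.971) and Scara5 (0.958).

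In GENCODE M21 on GRCm38, Inhba lies on chromosome 13 (16011851 to 16031621, plus strand), Bmp4 on chromosome 14 (46383520 to 46390669, minus strand), Grem1 on chromosome 2 (113746164 to 113758646, minus strand), Inhbb on chromosome 1 (119415465 to 119422248, minus strand) and Fst on chromosome 13 (114452290 to 114458951, minus strand). Inhba, Bmp4, Bmp5 and Fst overlap other annotated genes, among them genes on the other strand, and as the use of strand in the counting was not given in the sources used here, their reads cannot be told apart.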

How the data were processed

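RNA from 40 sorted cell samples (10 groups of 4) was amplified by the authors with NuGEN Ovation V2, sequenced as single reads and processed with bcl2fastq 2.20, Bowtie 2 and HTSstation on mm10. The deposited estimated counts per Ensembl gene (not whole numbers) and the RPKM (reads per kilobase, scaled to mapped reads) were both made by the authors. The annotation release and the handling of strand and of reads with several matches were not given in the sources used here. Groups were taken from the labels.

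Counts were rounded to whole numbers and tested with edgeR 4.0.16 in R 4.3.3 (filterByExpr, TMM, robust quasi-likelihood fit) with Benjamini-Hochberg adjustment over all genes tested in a comparison. The study's own tool, limma-voom (limma 3.58.1), and DESeq2 1.42.0 were among the alternatives. The 4 sorted tumor fractions were compared in 1 fit. No main fit had a term for the animal, although some of the libraries compared came from the same mice by their titles. Levels are given as RPKM, and folds against groups with at most 3 counts in each library as bounds. No SE or adjusted p covers more than the spread between libraries, which may in part be technical. Code was tested on simulated counts. All 10 genes were examined in every comparison, although those not tested or not called are not all named in each. Up to 6 called genes per pathway list were named in the 4 comparisons of tumor with healthy colon cells or with blood. The 3 nearest neighbors were named for each gene reaching a group mean of 1 RPKM. The values of 1 gene of these lists are not reported here. The genes and lists were chosen with earlier results of these data known. Replicate numbers were not taken to pair the libraries, since the deviations of same-numbered libraries correlated at -0.257 to 0.308, with at least 1 pair under 0.1 in each comparison, although all 4 pairs of blood monocytes were above 0 (0.0734 to 0.253). Library totals of 10717873 to 38002939 counts limit what is seen of genes with a few counts, and the floor of 3 counts covers counting error only.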

Additional observations from a re-analysis of the deposited data

Results flagged for a closer look

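Chrdl1 stood apart in healthy stromal library 4, at 5.71 RPKM against 0.286 to 1.03 in the other 3 healthy stromal libraries. Of 20 groups with a mean of at least 1 RPKM this was the 1 in which a library lay farther from its neighbors than Dixon's limit for 4 values, and chance gives about 1 such case in 20 groups. In that library the fibroblast marker list stood at 219.9% and the endothelial list at 18.1% of the healthy stromal mean, and the part of either was not tested.

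The difference between tumor-bearing and healthy mice was not the same in stromal and epithelial cells for 4 of 9 genes tested by the edgeR interaction test. That test called 14.1% of all genes. The stromal minus the epithelial log2 change was -2.87 for Inhba, -7.94 for Bmp4, -6.09 for Bmp5 and -10.07 for Chrdl1. The values for Bmp4, Bmp5 and Chrdl1 rest on healthy epithelial libraries with at most 3 counts and give no size. The call for Inhba was lost without tumor stromal libraries 1 and 2. Between myeloid cells the same kind of test called Inhba alone of 6 genes tested, where 3.95% of all genes were called. Its log2 change from blood to tumor in neutrophils minus that in monocytes was -6.50.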

How the results depend on the processing

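Outside the fits without 1 library, the results of single genes kept their direction and their side of the threshold in 318 cases, lost a call in 35, gained one in 48 and reversed in 0. Genes that were called neither in the report nor under the alternative are not in these numbers, and among them the stromal values of Fst and Bmp7 turned to -0.15 and -0.08 without tumor stromal libraries 1 and 2. In tumor against healthy stromal cells 2 genes were called, and DESeq2, the fit of all 40 libraries and the replicate block each called 5, the replicate block adding Bmp5, Fst and Chrdl1, while 4 were called without tumor stromal libraries 1 and 2. Replicate numbers were not taken to pair the libraries, and the replicate block moved no other count by over 1.5 times. In tumor against healthy epithelial cells limma on log2(RPKM + 1) called 2 in place of 5. In tumor against blood neutrophils no filter on low counts gave 4, the fit of all 40 libraries 6 and limma on log2(RPKM + 1) 1 in place of 2, and in tumor against blood monocytes no filter gave 4 and the fit of all libraries 5 in place of 1. With more genes passing the filter, both counts have more genes to call. In blood neutrophils limma on log2(RPKM + 1) called 0 in place of 1, and in blood monocytes DESeq2 called 1 in place of 0. In healthy stromal against epithelial cells limma on log2(RPKM + 1) called 4 in place of 7. In tumor stromal against tumor epithelial cells DESeq2 called 2, the fit of all libraries 1, limma on log2(RPKM + 0.1) 1 and the fit without tumor stromal libraries 1 and 2 3, in place of 0. In tumor stromal cells against monocytes limma on log2(RPKM + 1) called 3 and the animal block 2 in place of 7, and in tumor monocytes against neutrophils limma on log2(RPKM + 1) called 1 in place of 3. For the stromal minus epithelial difference DESeq2 called 7 and limma on log2(RPKM + 0.1) 8 in place of 4, and for the neutrophil minus monocyte difference these each called 2 in place of 1. Where no construction is named, the cause was not tested.

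Leaving out 1 library at a time, the counts ran from 2 to 3 in tumor against healthy stromal cells, 5 to 6 in epithelial cells, 2 to 6 in tumor against blood neutrophils, 1 to 3 in tumor against blood monocytes, 6 to 9 in healthy stromal against epithelial cells, 0 to 1 in tumor stromal against epithelial cells, 5 to 8 in tumor stromal cells against monocytes, 2 to 3 in tumor monocytes against neutrophils and 3 to 7 for the stromal minus epithelial difference. The highest came without tumor neutrophil library 2 (6), without blood monocyte library 3 of tumor-bearing mice (3), without tumor stromal library 2 (1) and without healthy epithelial library 1 (7), in that order. Leaving out any 1 blood neutrophil library of tumor-bearing mice gave 4, with Bmp2 and Bmp7 added. CPM in place of RPKM moved no ratio of group means by more than the spread between libraries. Nog, and most of the 10 genes in blood cells, did not pass the filter on low counts, and without that filter Nog was called in healthy stromal against epithelial cells and in 0 of the other comparisons. The pathway lists, ligand shares and sums without tumor stromal libraries 1 and 2, and the lists without tumor neutrophil library 1, were alternatives chosen after the data were seen.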
